A study of Arabidopsis thaliana with 36 samples.

Results

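Enrichment by chromatin immunoprecipitation (ChIP) along the chloroplast chromosome was compared between 14-day leaves and 4-day seedlings of wild-type Arabidopsis thaliana. The leaf libraries are titled RpoB, a subunit of the plastid RNA polymerase, while the seedling labels name no target. The comparison used 12 of the 36 libraries of the series: 3 ptChIP and 3 input libraries of leaves labelled Day, and 3 ChIP and 3 input libraries of the seedling line Col0. A few passages also show the other groups of the series. These are 14-day leaves kept in darkness for 24 h (Night) and 4-day seedlings of the lines sig2-2, chl27 and chlm, which are labelled apart from wild-type Col0. In ptChIP, DNA held by a protein in chloroplasts is fixed with formaldehyde, recovered with an antibody and sequenced, and DNA sequenced without this selection is the input. Libraries were chosen by their labels alone, and enrichment was taken against the inputs of the same table before leaf and seedling were compared.

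The leaf group was ecotype Col0, genotype wild type, grown for 14 days on soil at 22 °C in 16 h of light and 8 h of darkness and collected 2 h into the light. Its antibody is labelled a-RpoB, and each preparation started from 5 g of rosette leaves, whose chloroplasts were isolated first and crosslinked afterwards. The seedling group was Col0, genotype wild type, labelled as 4 days old, with 4 to 5 days in the harvest protocol, and was grown on 0.5X MS plates in continuous light. Each seedling preparation pooled 50 seedlings, which were crosslinked before they were homogenized, and the labels name no antibody for this group. Both groups were stratified for 48 h, received 100 umol m-2 s-1 of light and were fixed with 4% formaldehyde for 4 h. Age, tissue, growth conditions, the order of fixation, the labelled antibody and the deposited table all change together between both groups and cannot be told apart. Each table holds only leaf or only seedling libraries, so no comparison within a batch was possible.

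RpoB is a catalytic subunit in the core of PEP, the plastid-encoded RNA polymerase, an enzyme of bacterial type that is directed to promoters by nucleus-encoded sigma factors. PEP transcribes the photosynthesis genes, the rRNA operon and most tRNA genes of the chloroplast. A nucleus-encoded polymerase (NEP) of phage type transcribes mainly housekeeping genes, among them the genes of PEP itself. NEP is best known for its part early in plastid development, and PEP for its dominance in green leaves.

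Values are log2 ChIP to input of coverage scaled to each library's plastid total, so 0 is the average of the plastid chromosome and a negative value is less coverage than that average, not an absence of binding. Mean coverage per position was 425, 1039 and 768 in the leaf ChIP libraries 1, 2 and 3, and 2100, 2476 and 1885 in the seedling ChIP libraries. Inputs had 1050 to 1227 in leaf and 1132 to 1454 in seedling. Leaf ChIP library 3 stood apart from its replicates: over 50 bp windows the SD of its log2 ratio was 0.46 to library 1 and 0.45 to library 2, against 0.28 between libraries 1 and 2 and 0.16 to 0.19 among the seedling ChIP libraries. Nothing in the labels says that replicates came from separate plantings, so tests measure the spread between these libraries, which may be technical.

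The order of the genes was much the same at both ages, and the range was wider in leaves. By limma, 36 genes lay above input (31.9%) and 67 below it (59.3%) in leaf, and 41 (36.3%) and 63 (55.8%) in seedling. Across 113 genes the mean leaf and seedling values had a Pearson correlation of 0.98, given as a description because genes are not independent. Of the 10 most enriched genes in each group, 9 were shared. The leaf list had trnH where the seedling list had rrn16S, and the top 10 held 9 tRNA genes in leaf and 8 in seedling. The SD of enrichment across genes was 1.59, 1.53 and 1.65 in the leaf libraries and 1.25, 1.26 and 1.21 in the seedling libraries. Every leaf library lay above every seedling library, and the means of 1.59 ± 0.06 and 1.24 ± 0.03 (SD, n = 3 each) gave a two-sided exact permutation p of 0.1, the smallest that 3 against 3 allows. The slope of leaf on seedling values was 1.25. Leaves of the same table kept in darkness for 24 h (Night) had SDs of 0.92 to 1.17, below all 3 Col0 seedling libraries, so a wide range was not common to all leaf libraries.

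**Figure D1:**
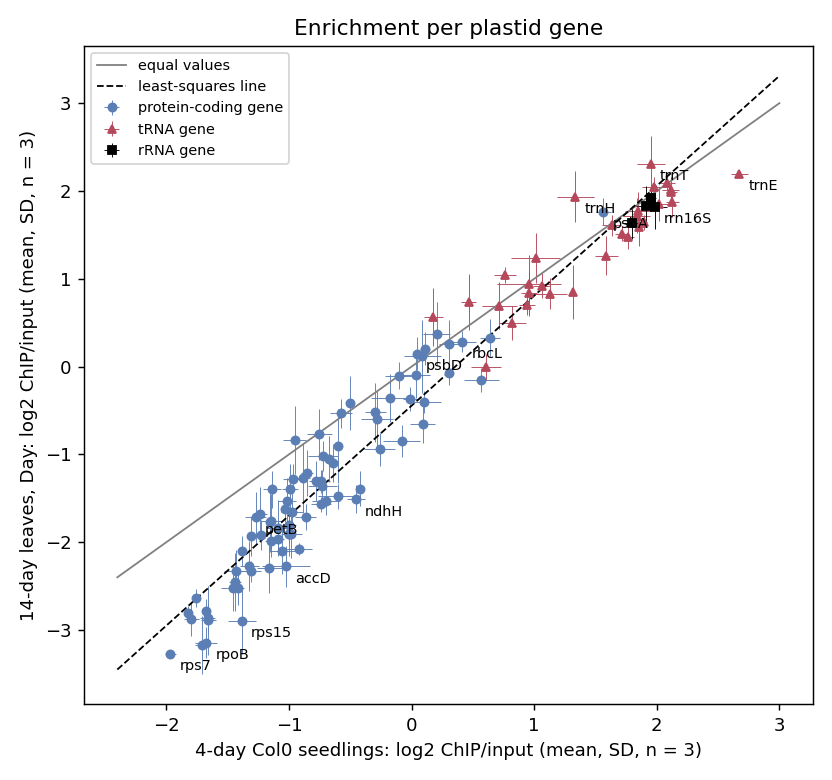
Mean log2 ChIP to input of each of the 113 plastid genes in 4-day Col0 seedlings (x axis) and 14-day Day leaves (y axis), with SD bars (n = 3 each), the line of equal values and the least-squares line. Most genes with high values lie near equality, while most of those below the plastid average lie under it, with a slope of 1.25. Among the exceptions, trnH and trnE lie off the line of equal values, and rpl32, rpl20 and psbE lie slightly above it.

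By limma on all 113 genes, 68 differed between leaf and seedling at an adjusted p under 0.05 (60.2%): 3 were higher in leaf (2.65%) and 65 were lower (57.5%). Because the values are shares of one chromosome, the balance of directions depends on the scaling: the median gene was 0.38 lower in leaf, and after each library was centred on its median gene 20 were higher and 40 lower (17.7% and 35.4%). Centred differences are therefore given for the main genes as well. The limma fit pooled the spread over all genes completely and did not count the spread of the inputs, which makes its p-values very small. Adjusted p-values from a fit of all 12 libraries, which counts the inputs' spread and called 2 genes higher and 63 lower, are given for the main genes.

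All 4 genes of the PEP core were lower in leaf by the main scaling, and 3 of them after centring, beside 57.5% and 35.4% of all genes. The gene rpoB itself had enrichment of -3.08, -3.01 and -3.35 in the leaf libraries and -1.78, -1.64 and -1.61 in the seedling libraries. These groups did not overlap, and the difference of -1.47 (SE 0.12), which is 2.77-fold lower in leaf, had an adjusted p of 2.83e-28 by limma and 4.35e-08 with all 12 libraries. The centred difference was -1.09, so rpoB was lower also relative to the median gene. Next to it in the same transcription unit, rpoC1, which encodes another PEP subunit, had a difference of -1.11 (centred -0.74). The remaining core gene of this unit, rpoC2, had a difference of -1.08 (centred -0.70). The fourth, rpoA, lies in a ribosomal protein cluster. It was lower by the main scaling, at -0.45, and with scaling outside the inverted repeats, at -0.28 (adjusted p = 0.0442), but its centred difference was -0.08 with an adjusted p of 0.545.

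All 8 entries for genes known to be transcribed mainly by NEP (accD, clpP, rpoB, rpoC1, rpoC2, ycf2 and both entries of ycf1) were lower in leaf, with a median difference of -0.99, against -0.38 over all genes, where 57.5% were lower. After centring 7 of the 8 stayed lower, the exception being clpP, a protease subunit gene. The gene accD, for a subunit of acetyl-CoA carboxylase of fatty acid synthesis, had -2.44, -2.003 and -2.39 in leaf and -1.15, -1.12 and -0.80 in seedling. No leaf value reached a seedling value, the difference was -1.25 (SE 0.14, 12-library adjusted p = 1.21e-06), and its median rank among the 113 genes, where 1 is the most enriched, went from 84 in seedling to 97 in leaf. The list as a whole did not fall in rank, with a median of 104 in seedling and 101.5 in leaf. Of 4 entries whose ranks did not overlap, 2 moved toward the top in leaf and 2 away from it. After centring and division by each library's SD, ycf2, the ycf1 entry ArthCp070 and clpP missed the threshold (limma adjusted p = 0.285, 0.515 and 0.922). The other entries stayed lower, beside 55 lower and 8 higher of all 113 genes by this scaling.

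Genes of small ribosomal subunit proteins were lower in leaf in 10 of 12 cases, with a median of -0.92, and in 8 of 12 after centring. Among all genes 57.5% were lower, and 35.4% after centring. The lowest difference of all genes was at rps15, which had -2.68, -2.69 and -3.33 in leaf against -1.38, -1.498 and -1.27 in seedling, a difference of -1.52 (SE 0.13, 12-library adjusted p = 1.05e-06, centred -1.14). At rps12, measured over a 114 bp span only, the difference was -1.46, and at rps7, the least enriched gene in 2 of 3 leaf and in all 3 seedling libraries, it was -1.30. The genes rps2 and rps3 had differences of -1.23 and -1.20. None of these 5 genes had overlapping groups, which held for 74 of all 113 genes (65.5%). For the large subunit 6 of 9 genes were lower and none higher, beside 57.5% and 2.65% of all genes, led by rpl36 at -1.14 (centred -0.76). After centring, 4 were lower and 2 higher, beside 35.4% and 17.7% of all genes, so the list has no single direction.

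Genes of ATP synthase, the cytochrome b6f complex and the NDH complex were mostly lower in leaf by the main scaling. The shares to set beside these lists are 57.5% of all genes lower, and 35.4% after centring. ATP synthase genes, all 6 of them, were lower in leaf both before and after centring, with a median of -0.87. The lowest of them was atpI, a membrane subunit gene, at -0.95. The 6 genes of the cytochrome b6f complex were all lower, with a median of -0.59, but only petA and petL stayed lower after centring. Of 11 genes of the NDH complex, which carries electrons around photosystem I, 9 were lower and 8 after centring. The largest NDH difference was at ndhH, where leaf values of -1.40, -1.45 and -1.69 lay well below seedling values of -0.42, -0.54 and -0.40. Its difference was -1.06 (SE 0.16, 12-library adjusted p = 1.21e-06, centred -0.68).

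Photosystem II genes had small differences by the main scaling. Of 15, none was higher and 4 were lower by the main scaling, with a median of -0.18, and after centring 7 were higher and none lower, against 17.7% higher and 35.4% lower among all genes. The 7 were psbA, psbC, psbD, psbE, psbM, psbT and psbZ. After centring and division by each library's SD, psbD, psbE and psbT stayed higher (limma adjusted p = 0.0295, 0.00399 and 0.00399). The genes psbA, psbC, psbM and psbZ then missed the threshold, with limma adjusted p from 0.0535 at psbC to 0.922 at psbA. By this scaling 8 of all 113 genes were higher and 55 lower. For psbA, which encodes the D1 reaction centre protein, leaf values were 1.93, 1.74 and 1.62 and seedling values 1.63, 1.53 and 1.53. The lowest leaf value lay just under the highest seedling value, the difference of 0.20 (SE 0.12) missed the threshold at a limma adjusted p of 0.13, and the centred difference was 0.58 with an adjusted p of 0.00181. Without leaf library 3 the uncentred difference was 0.30 and passed, at an adjusted p of 0.0066. The D2 protein gene psbD had 0.33, 0.18 and -0.06 in leaf and 0.02, 0.03 and 0.08 in seedling. Its groups overlapped through leaf library 3, and its difference of 0.11 (SE 0.17, limma adjusted p = 0.586) became 0.48 on the centred scale (adjusted p = 0.00199). The operon of psbD, psbC and psbZ as a whole had 0 of 3 genes past the threshold and 3 of 3 higher after centring.

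Photosystem I genes had a median difference of -0.31, with psaC and psaI lower among 5, and after centring psaJ was higher and psaC lower. Of all genes 57.5% were lower, and after centring 17.7% were higher and 35.4% lower. The gene psaA, for a reaction centre protein, had -0.27, -0.58 and -0.94 in leaf and -0.16, -0.42 and -0.27 in seedling, and the groups overlapped (difference -0.31, limma adjusted p = 0.0939). Leaving out leaf library 1 put it past the threshold, at -0.47 with an adjusted p of 0.0219. At rbcL, the gene of the large subunit of Rubisco, leaf values of 0.41, 0.27 and 0.17 overlapped seedling values of 0.54, 0.32 and 0.38. The difference of -0.13 (SE 0.16) had a limma adjusted p of 0.495, and its sign turned on the centred scale, at 0.24 with an adjusted p of 0.0953.

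**Figure D2:**
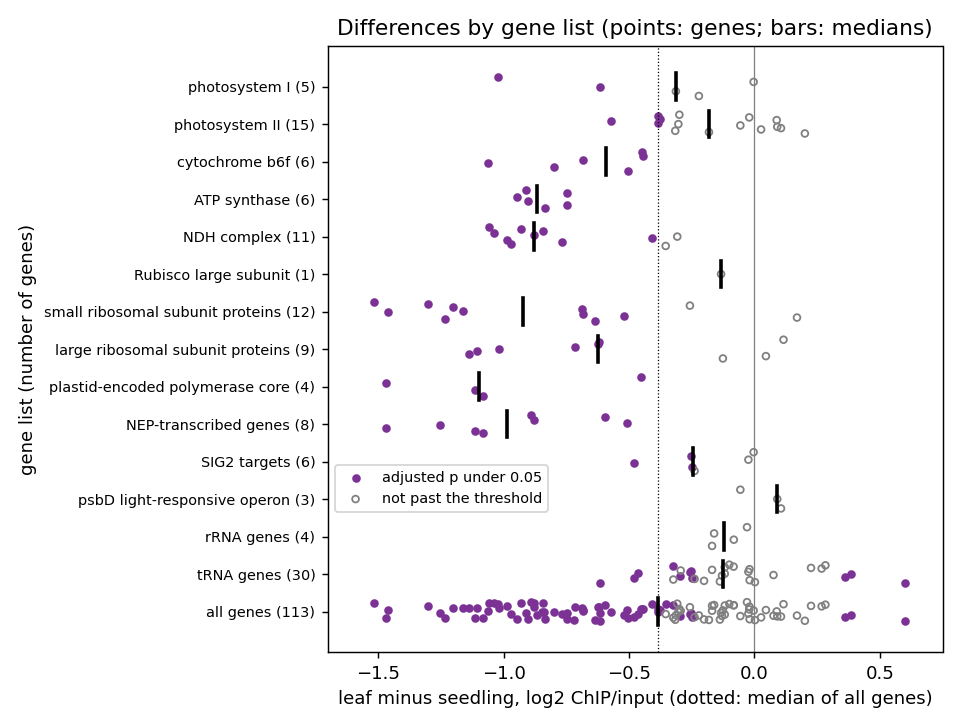
Difference of leaf Day minus seedling Col0 in log2 ChIP to input (x axis) for each gene of each list (y axis), with filled points for genes past an adjusted p of 0.05 and bars for list medians. The lists of NEP-transcribed, NDH, ATP synthase and ribosomal protein genes have medians below the dotted median of all genes at -0.38, while photosystem, rRNA and tRNA genes have medians above it.

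The rRNA genes differed between leaf and seedling in ChIP coverage, but much less over each table's own input. The operon held 37.6%, 33.6% and 45.3% of plastid coverage in the leaf ChIP libraries and 27.0%, 28.0% and 24.3% in the seedling ChIP libraries. These groups did not overlap, but the inputs differed in the same way, at 10.9% ± 0.4 in leaf and 7.01% ± 0.39 in seedling (SD, n = 3 each). Over input, the log2 share was 1.82 ± 0.22 in leaf and 1.92 ± 0.11 in seedling (SD, n = 3 each), a difference of -0.10 with a two-sided exact permutation p of 0.6. None of the 4 rRNA genes passed the threshold under the main scaling or after centring. After centring and division by the library's SD all 4 were lower in leaf, by limma at -0.32 to -0.23 SD units. By that scaling 55 of all 113 genes were lower and 8 higher, and many tRNA genes were lower too. At rrn16S, the small subunit rRNA gene, leaf values of 1.70, 1.64 and 2.11 enclosed seedling values of 2.02, 2.07 and 1.87, and from the ChIP libraries alone its difference would have been 0.54 in the other direction.

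Inputs differed elsewhere too: 80 of 113 genes had an input difference between tables past the threshold (70.8%), from -0.54 to 0.73 on the log2 scale. Where an input difference is large beside the enrichment difference, its part in the result was not tested, and the value from ChIP libraries alone is given.

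Transfer RNA genes, mostly transcribed by PEP, had median enrichment of 1.49 in leaf and 1.61 in seedling, below the rRNA genes at 1.83 and 1.93. Of these genes 3 of 30 were higher in leaf, 8 lower and 19 not past the threshold, beside 2.65% higher and 57.5% lower of all genes. After centring 9 were higher and none lower, beside 17.7% and 35.4% of all genes. After centring and division by each library's SD, many tRNA genes were lower by limma, such as trnM at -0.39 and trnF at -0.35 SD units. Only trnH (0.28) and the trnS gene ArthCt125 (0.35) were then higher, beside 8 higher and 55 lower of all 113 genes. The gene trnE, whose tRNA also serves as the start of chlorophyll and haem synthesis and which depends on the sigma factor SIG2, had 2.18, 2.18 and 2.22 in leaf and 2.60, 2.68 and 2.74 in seedling. The groups did not overlap, and the difference of -0.48 (SE 0.09) had an adjusted p of 8.75e-07 by limma and 5.13e-05 with all 12 libraries. It ranked first in all 3 seedling libraries and between 1 and 3 in leaf. Relative to the median gene the difference was -0.10 with an adjusted p of 0.541, and from the ChIP libraries alone it was -0.12, beside an input difference of 0.36. After centring and division by each library's SD the trnE difference was -0.64 SD units (limma adjusted p = 1.49e-05), the lowest of all genes. Of 6 genes known to depend on SIG2, 3 were lower in leaf, beside 57.5% of all genes, and none higher. After centring 2 were higher and none lower, beside 17.7% and 35.4% of all genes.

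The 3 genes that were higher in leaf under the main scaling were all tRNA genes. For trnH, leaf values were 2.05, 2.15 and 1.61 and seedling values 1.40, 1.17 and 1.44, without overlap. The difference of 0.60 (SE 0.12, 12-library adjusted p = 0.00641) fell to 0.26 from ChIP libraries alone, with an adjusted p of 0.13. This gene lies at positions 4 to 76, where input coverage climbs from the end of the linear reference and has reached 50% of its plateau only at 292 bp. At trnT the leaf values were 2.56, 2.42 and 1.96, and the seedling values were 2.05, 1.82 and 1.99. Its groups overlapped, and the difference of 0.36 was lost with all 12 libraries (adjusted p = 0.0783), without leaf library 1 or 2 or seedling library 2, and from ChIP libraries alone, where it was 0.05. For the trnS gene ArthCt125, 0.18, 0.70 and 0.80 in leaf overlapped 0.09, 0.25 and 0.20 in seedling, and the difference of 0.39 missed the threshold with all 12 libraries at an adjusted p of 0.0676. It was lost as well when leaf library 2 or any 1 of the seedling libraries was left out.

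**Figure D3:**
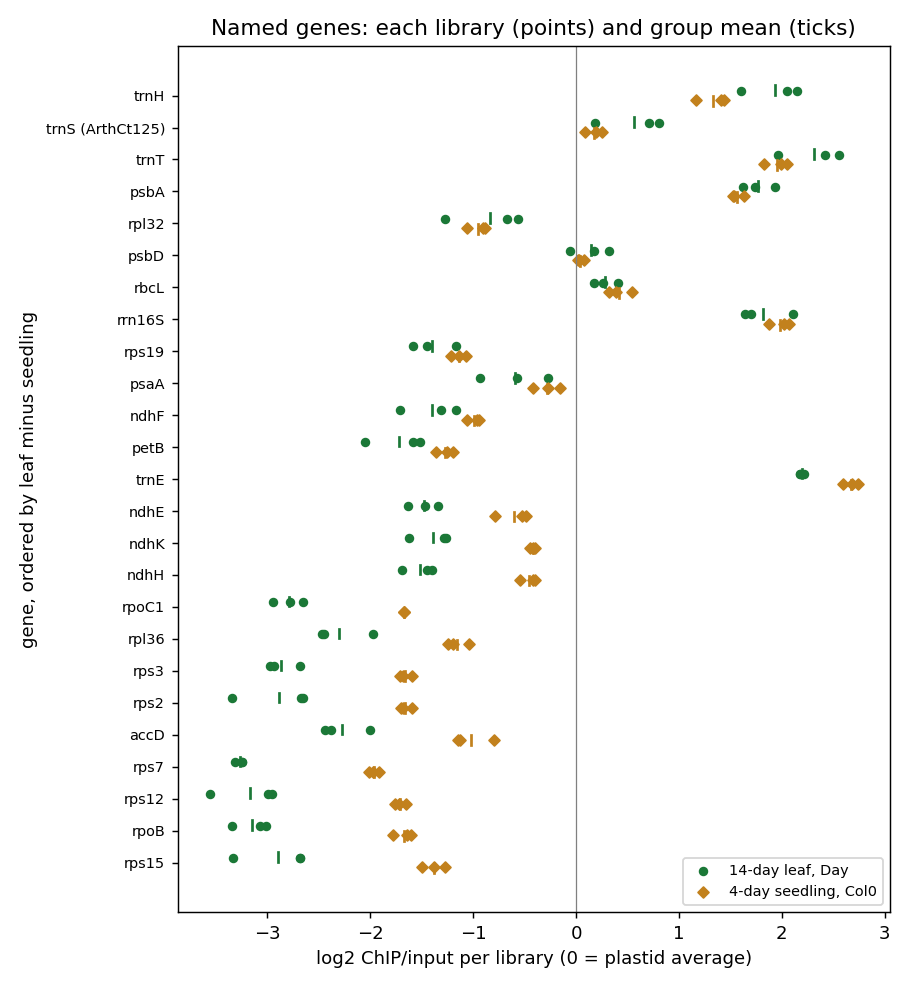
Log2 ChIP to input of 25 named genes (y axis, ordered by the difference) in each of 3 leaf Day libraries (circles) and 3 seedling Col0 libraries (diamonds), with group means as ticks. Leaf values lie left of seedling values without overlap from ndhF down to rps15, and mix with them around rbcL, rrn16S and psaA.

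Ranks within a library do not depend on its total or its centring. For 41 of 113 genes (36.3%) the 3 leaf ranks did not overlap the 3 seedling ranks, with 20 genes nearer the top in leaf and 21 nearer the bottom. No p-value belongs to this count. The largest moves toward the top in leaf were at rps19, with a median rank of 68 against 90 in seedling, at rpl32, with 56 against 77, and at trnH, with 5 against 22. The next, with equal moves, were the cytochrome b6f genes petB, with 81 against 94, and petD, with 80 against 93, and also ndhF, with 67 against 80. Of these petD is outside the rule for named genes and is given because of its tie, after its values were seen. Among the moves in the other direction, ndhH went from a median rank of 56 in seedling to 74 in leaf, ndhK from 55 to 71, ndhE from 58 to 72 and accD from 84 to 97. The NDH genes thus moved both ways in rank: 6 of 11 moved down and 3 moved up without overlap. The gene psbA went from a median rank of 21 in seedling to 11 in leaf, and psbD from 46 to 39, both without overlap.

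At 50 bp resolution most higher windows were intergenic and most lower windows protein-coding. Of 2564 windows, with both copies of the inverted repeat averaged, 1527 differed at a limma adjusted p under 0.05 (59.6%): 71 higher in leaf (2.77%) and 1456 lower (56.8%). Of the 71 higher windows 61 were intergenic, although only 780 of all windows were. Protein-coding windows had a median of -1.98 in leaf and -1.17 in seedling, with 8 of 1557 higher and 1164 lower. Intergenic windows had medians of -0.59 and -0.60, with 61 of 780 higher and 264 lower, while none of 90 rRNA windows passed in either direction. With each library centred on its median window, 605 windows were higher (23.6%) and 793 lower (30.9%), and of these 339 intergenic windows were higher and 126 lower against 215 and 667 among protein-coding windows. Neighbouring windows share DNA fragments and are not independent. The count of higher windows depended on single libraries, and was 201 without leaf library 3, 45 without leaf library 1 or seedling library 3, and 36 without seedling library 2. When each ChIP library was set against the input with its own replicate number it was 130.

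Windows with high enrichment were largely shared, less so for seedling at a higher level. Windows above a log2 of 1 in all 3 libraries numbered 324 in leaf and 331 in seedling. The 310 they shared were 95.7% of the leaf set and 93.7% of the seedling set. Above a log2 of 1.5 there were 205 leaf and 256 seedling windows, and the 190 they shared were 92.7% of the leaf set and 74.2% of the seedling set.

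Runs of at least 3 adjacent higher windows numbered 13, against 59 runs of lower windows. Of the 13, 6 lay just before, or in 1 case farther upstream of, the coding start of a photosynthesis gene. Distances were measured to the starts of these 6 genes only, and no share over other gene starts is given, so this count is a description. Run positions are those of the TAIR10 plastid chromosome, gene positions come from the TAIR10.1 gene table, and transcription directions were taken from textbook knowledge since that table gives none. Only the 5 runs with the highest and the 5 with the lowest mean difference were set by a rule, and the other runs are named because of their values.

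The run upstream of psbB, which encodes the CP47 antenna protein of photosystem II, covered positions 72001 to 72350, 21 to 370 bp before the coding start in the stretch between clpP and psbB. Its mean enrichment was 1.11, 1.39 and 0.70 in leaf and 0.01, 0.13 and 0.02 in seedling. No leaf library came near the seedling range, and the difference was 1.01, or 0.59 from the ChIP libraries alone. Within each library this run exceeded the body of psbB by 1.92, 2.39 and 2.03 in leaf and by 0.72, 0.81 and 0.65 in seedling. A library's total or centring does not enter this contrast, but the runs were chosen because they were higher in leaf, so here and at psbE and psaA it is a description only. The psbB gene as a whole was lower by the main scaling, at -0.38 (limma adjusted p = 0.037), but its difference was 0.00 after centring (adjusted p = 0.9997) and -0.20 with scaling outside the inverted repeats (adjusted p = 0.103).

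At psbE, the gene of a subunit of cytochrome b559, the run, at positions 64251 to 64650, reached from 71 bp inside the gene to 328 bp before its start. Leaf values of 1.47, 1.42 and 1.07 lay above seedling values of 0.27, 0.45 and 0.57, with a difference of 0.89 that was 0.90 from the ChIP libraries alone. Upstream exceeded body by 1.73 ± 0.09 in leaf and 0.93 ± 0.13 in seedling (SD, n = 3 each). The psbE gene as a whole had a difference of 0.09 (limma adjusted p = 0.654), with overlapping groups, and was higher after centring at 0.47 (adjusted p = 0.00271).

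Before psaA, the run at positions 41901 to 42200, 44 to 343 bp upstream, had 2.16, 2.17 and 1.62 in leaf and 1.30, 1.13 and 1.28 in seedling. The difference was 0.74, and 0.71 from the ChIP libraries alone. This stretch exceeded the psaA body by 2.43, 2.75 and 2.55 in leaf and by 1.46, 1.54 and 1.55 in seedling. Leaf library 3, low at both places, was not apart from its replicates in this contrast.

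The run upstream of psbD, at positions 31701 to 31950 between trnT and psbD, lay 761 to 1010 bp before the coding start. The psbD operon is known for a light-responsive promoter far upstream of its first gene, recognised by PEP with the sigma factor SIG5. Enrichment was 1.499, 1.42 and 0.43 in leaf and 0.06, 0.03 and 0.29 in seedling. All leaf values were above all seedling values, but library 3 only slightly, and the difference of 0.99 was 1.30 without it. From the ChIP libraries alone the difference was 0.73.

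The runs before rbcL and psbA were smaller. Upstream of rbcL, positions 54701 to 54850 had 2.59, 2.69 and 2.09 in leaf and 1.95, 1.66 and 1.94 in seedling, a difference of 0.60 that was 0.03 from the ChIP libraries alone, beside an input difference of -0.58. Directly before psbA, positions 1451 to 1600 had 2.69, 2.48 and 2.20 in leaf and 1.91, 2.01 and 2.02 in seedling, with a difference of 0.48 and 0.54 from the ChIP libraries alone. Leaf and seedling did not overlap at either place.

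**Figure D4:**
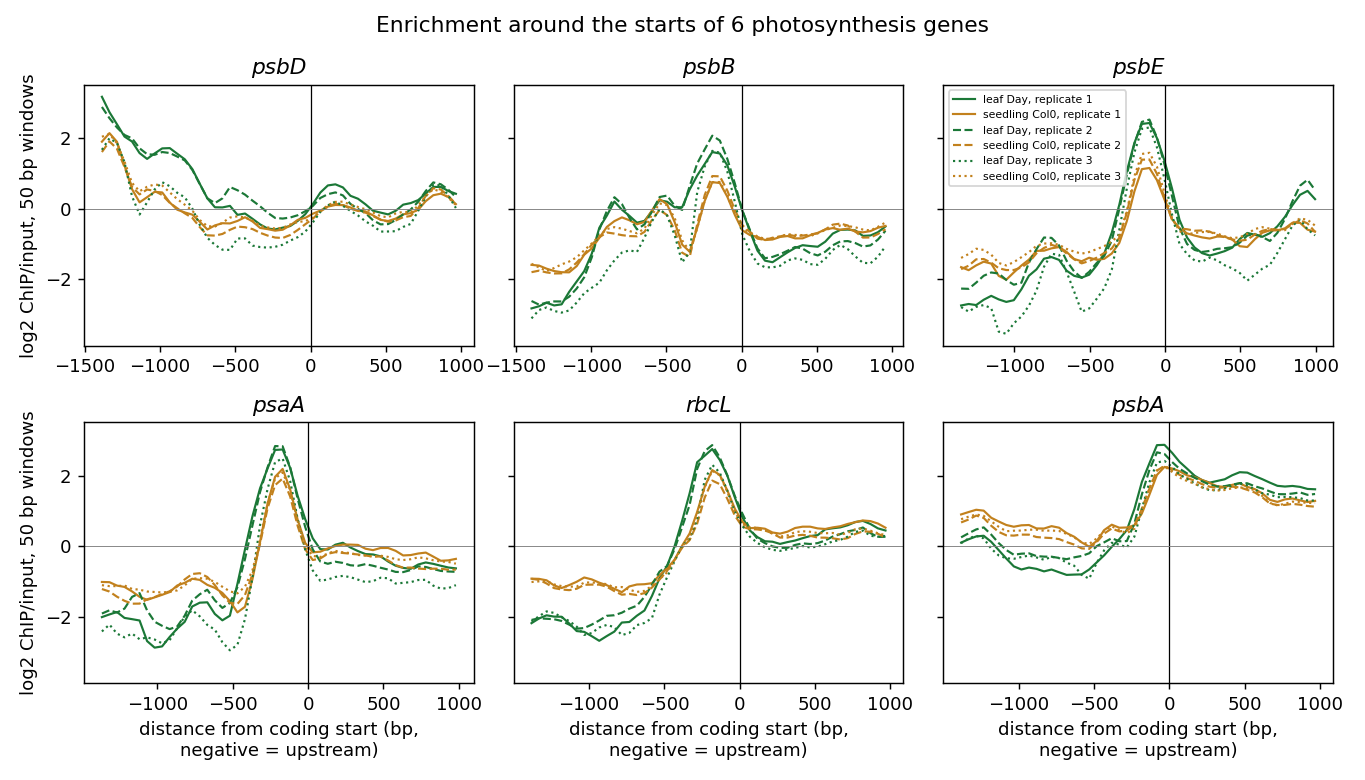
Log2 ChIP to input in 50 bp windows (y axis) by distance from the coding start (x axis, bp, negative upstream) at 6 photosynthesis genes, with 1 line per library (green leaf Day, orange seedling Col0). Peaks upstream of psbB, psbE and psaA are taller in leaf, and in leaf library 3 the stretch upstream of psbD stays near the seedling lines.

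Not every high run was equally firm. The run with the largest mean difference, 1.53, lay between psbZ and the trnG gene ArthCt116 at positions 36251 to 36400, where leaf values were 2.50, 2.70 and 0.45 and seedling values 0.79, -0.01 and 0.26. Leaf library 3 fell inside the seedling range, and from the ChIP libraries alone the difference was -0.06, beside an input difference of -1.59. The run at positions 1 to 350, over trnH and the end of the reference, had a difference of 0.94 that was 0.00 from the ChIP libraries alone. At positions 94401 to 94550, between the trnL gene ArthCt126 and ndhB, the difference of 0.62 was 0.07 from ChIP libraries alone. The other 4 runs lay between the trnR gene ArthCt127 and trnN (0.60), between trnN and ycf1 (0.56), inside ndhF (0.58) and inside ndhD (0.50), and their ChIP libraries alone gave 0.57, 0.65, 0.22 and 0.24.

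Across all plant groups of the series, 7 of the 13 high runs had every one of the 6 leaf libraries, Day and Night, above every one of the 12 seedling libraries, which include the lines sig2-2, chl27 and chlm. The runs were chosen because leaf Day was higher than Col0, and in 12 of the 13 these 2 groups did not overlap. That part of the separation follows from the choice, and no share over other stretches is given, so the count is a description only. The leaf libraries share a table, so plant age and table cannot be told apart here either. The 7 were the runs upstream of psbA, psbB, psbD and psbE, inside ndhD, and on both sides of trnN. At the psbE run the Night leaves had 1.42 to 2.07 and the highest of the 12 seedling libraries 0.94. Upstream of psbD the Night leaves had 0.86 to 1.33 and the highest seedling library 0.39. Before psaA the groups mixed, with 1.35 to 1.66 in Night leaves and up to 1.71 in the seedling lines.

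**Figure D5:**
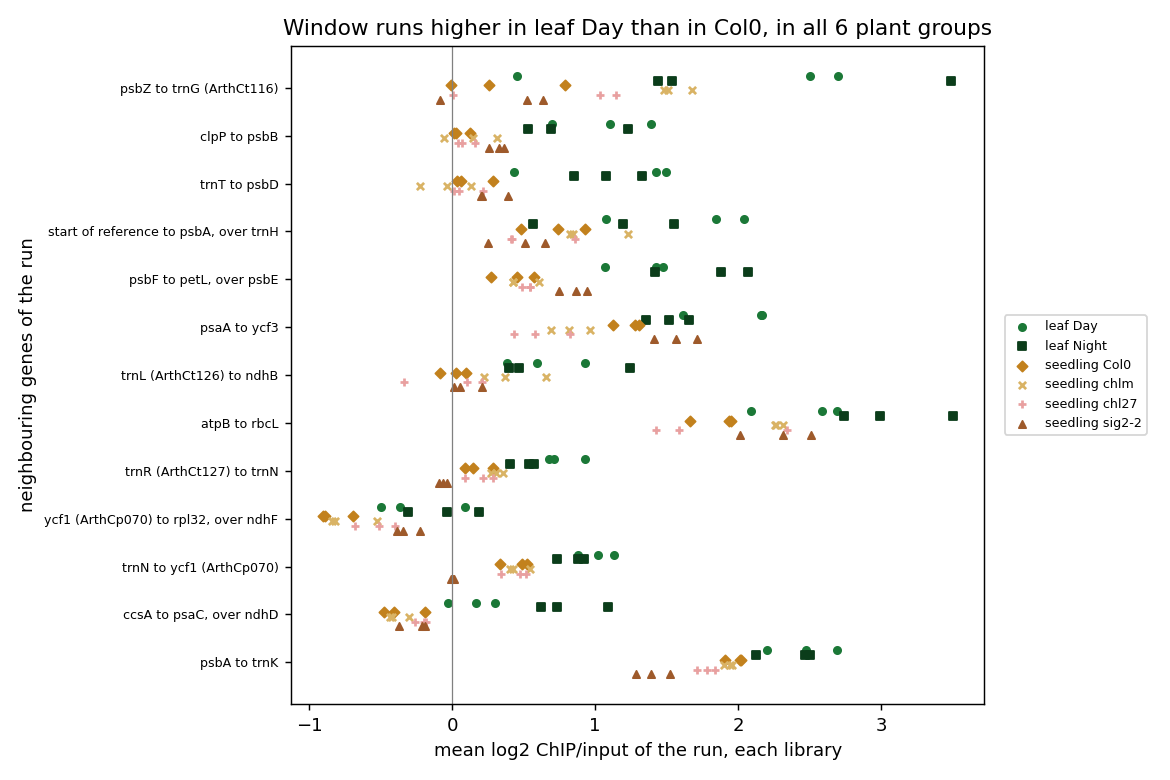
Mean log2 ChIP to input (x axis) of the 13 runs of windows that were higher in leaf Day than in Col0 seedlings (y axis, by neighbouring genes), with 1 point per library for all 6 plant groups. At 7 runs, among them those by psbB, psbD and psbE, all 6 leaf points lie right of all 12 seedling points.

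The 5 lower runs with the lowest mean difference were 1400 to 5900 bp long, and each overlapped protein-coding genes. The lowest mean difference, -1.56, was at positions 15101 to 17000 over rps2 and the end of rpoC2, where leaf libraries had -3.20, -3.28 and -3.67 and seedling libraries -1.89, -1.86 and -1.72. Positions 22401 to 26750, over rpoC1 and rpoB, had a difference of -1.47, and positions 94651 to 100550, over ndhB and rps7 in the inverted repeat, one of -1.30. The remaining 2 stretches, 17101 to 18550 inside rpoC2 and 68751 to 70150 over rpl20, rps12 and clpP, had differences of -1.29 and -1.27. ChIP libraries alone gave -1.23 to -1.56 at these 5 runs, and no leaf Day library overlapped a Col0 library. The runs were chosen by this same contrast, so the lack of overlap goes with the choice and is a description only. None of the 5 separated all leaf from all seedling libraries. At rpoC1 and rpoB the Night leaves had -1.73 to -1.05, inside the range of -1.90 to -0.50 of the 12 seedling libraries. That range is wide through the other lines: Col0 alone had -1.76 to -1.61, and sig2-2 had -0.58 to -0.50.

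Each gene of at least 600 bp was cut into 3 equal parts, and the first part, at the coding start, was set against the last. This contrast differed between leaf and seedling in 15 of 39 genes (38.5%), with 8 higher (20.5%) and 7 lower (17.9%) in leaf. In 14 of the 15 the contrast was larger in size in leaf, beside 30 of all 39 genes, called or not. The largest was at ndhF, a membrane subunit gene of the NDH complex, whose first minus last part was -1.32, -1.58 and -1.56 in leaf and -0.27, -0.32 and -0.38 in seedling. The difference of -1.17 (SE 0.10) had a limma adjusted p of 8.99e-05, and the high run inside ndhF lies in its last part. The genes rps2 and rpoA had differences of -1.05 and -0.73 (adjusted p = 0.00316 and 0.00254 by limma). In the other direction, clpP had 0.67 and petA, which encodes cytochrome f, had 0.59. The long ycf1 gene Arthcp087, for a proposed component of plastid protein import, had 0.50, which missed the threshold without leaf library 1 or seedling library 1 (limma adjusted p = 0.0522 and 0.0514).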

How the data were processed

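Libraries were ptChIP or ChIP and input of chloroplast preparations, 3 replicates per group, in 1 leaf table and 1 seedling table. The authors deposited whole-number coverage signal at each of 154477 plastid positions, without scaling to library size. The submitters' processing notes name Trim Galore 0.4.1, Bowtie2 2.2.8.9, bedtools 2.25.0 and TAIR10. Their settings, and how duplicates and reads fitting either inverted repeat copy were treated, are not given in the sources used here. Per the file headers, leaf positions are those of TAIR10, while the seedling header names no build. In each library coverage mirrored itself about the annotated repeat sum of 238649 within 2 bp. Reads span many positions, so coverage does not count independent reads, and no count model or counting interval was used and the number of reads is unknown.

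Genes came from the RefSeq table of TAIR10.1. After 15 pairs in the repeats were merged as means, 113 remained: 79 protein-coding, 30 tRNA and 4 rRNA genes, of which 10 overlap another gene and share its coverage. Mean coverage was scaled to a common plastid total, and log2(value + 1) was used, which understates changes of low values very slightly. The median gene difference was -0.3851 with a pseudocount of 0.1, -0.3849 with 1 and -0.3832 with 10. Enrichment is a ChIP library minus the mean of its table's inputs for that group. Leaf and seedling were compared with limma 3.58.1 in R 4.3.3 (eBayes with trend, Benjamini-Hochberg over all genes or all windows, threshold 0.05, residual df 4), and single values with exact permutation tests in scipy 1.17.1. Tables were handled with pandas 2.3.3 and numpy 2.4.6 in Python 3.11.15, with matplotlib 3.10.9 for plots. The scripts were tested on simulated data. Tables were made separately by the authors, so levels set across them rest on each library's own scaling. Columns of every sample were mapped by name.

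Named genes are the 10 highest and 10 lowest differences past the threshold, the 5 largest rises and falls of rank without overlap, 8 chosen genes and the 3 highest and 3 lowest contrasts of the first against the last of 3 equal gene parts. Of the genes this rule names, 1 is not reported here. The members, the gene lists and the rules were chosen with earlier results of these data known. Lists are given by counts and medians without a test. Alternatives were other scalings, pseudocounts, window sizes, length and input filters, all 12 libraries in 1 fit, ChIP alone, the replicate block and leaving out each replicate. The threshold on windows above input and the means over window runs were added after the data had been seen. Replicate numbers recur within each table: deviations of ChIP and input with the same number had correlations of 0.28, 0.63 and 0.52 across genes in leaf, which pairs them there by the data, but -0.10, -0.05 and 0.41 in seedling, which does not. Numbers pair nothing across tables.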

Additional observations from a re-analysis of the deposited data

Results flagged for a closer look

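Because the same contrast, ChIP over input, was tested for a difference between leaf and seedling, each named gene past the threshold of that test is listed here with its leaf minus seedling value. The lower genes were rps15 at -1.52, rpoB at -1.47, rps12 at -1.46, rps7 at -1.30, accD at -1.25, rps2 at -1.23, rps3 at -1.20, rpl36 at -1.14 and rpoC1 at -1.11. Among genes of electron transport, ndhH had -1.06, ndhK -0.97, ndhE -0.88, petB -0.45 and ndhF -0.41, and among tRNA genes trnE had -0.48. The higher genes were trnH at 0.60, the trnS gene ArthCt125 at 0.39 and trnT at 0.36. For the first minus the last of 3 equal parts of a gene, the differences were -1.17 at ndhF, -1.05 at rps2, -0.73 at rpoA, 0.50 at the ycf1 gene Arthcp087, 0.59 at petA and 0.67 at clpP. Groups of 3 libraries are too small to single out an outlying library by a gap test.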

How the results depend on the processing

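All values are leaf Day against seedling Col0, and the cause of each change was not tested. For genes, centring each library on its median gave 20 higher and 40 lower, and the number higher was 9 with scaling outside the inverted repeats, 8 after centring and division by the SD, 12 from ChIP libraries only and 0 among genes of at least 300 bp, where fewer genes were tested. Leaving out 1 replicate gave 1 (without leaf replicate 2 or seedling replicate 2) to 7 (without leaf replicate 3) higher and 53 to 73 called. For windows, centring gave 605 higher and 793 lower, centring and division by the SD 214 and 758 of 972 called, scaling outside the repeats 183 higher and ChIP libraries only 199 higher. Windows of 25 bp gave 141 higher and 2903 lower of 3044 called, and those of 100 bp 35 and 729 of 764, with other numbers of windows tested. Leaving out 1 replicate gave 36 to 201 higher. With the replicate block, which sets each ChIP library against the input of its own number, 130 windows were higher, and it changed no other count by over 1.5 times and no call of a named gene. The contrast of first against last gene part gave 8 to 17 called and 3 to 11 higher when 1 replicate was left out, with 8 and 3 without seedling replicate 1. Genes with ranks that do not overlap numbered 25 among those of at least 300 bp. The difference in SD was 0.35 across genes and 0.46 across 50 bp windows. Above a log2 of 1.5 there were 205 leaf and 256 seedling windows, of which 190 were shared.

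Some signs turned. Centring gave 0.12 for rps19, 0.24 for rbcL, 0.064 for psaA and 0.21 for rrn16S. Centring and division by the SD gave, in SD units, 0.19 for rps19, 0.067 for ndhF, 0.093 for petB, -0.0086 for psbA and -0.050 for the run before psbA. Scaling outside the repeats gave 0.046 for rbcL and 0.010 for rrn16S. ChIP libraries only gave -0.37 for rpl32, 0.11 for rbcL, 0.54 for rrn16S and -0.058 for the run between psbZ and trnG. The 9 genes named for the lowest differences kept direction and call under every alternative that included them. Pseudocounts of 0.1 and 10 changed no call or sign of a named gene.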
